A study of Homo sapiens with 6 samples.

Results

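The oxidative stress genes that the transcription factor NRF2 regulates were described here by 7 probes, 1 each for NQO1 (ILMN_1720282), SRXN1 (ILMN_1804822), TXNRD1 (ILMN_1717056), SLC7A11 (ILMN_1655229), HMOX1 (ILMN_1800512), AKR1C3 (ILMN_1713124) and AKR1B10 (ILMN_1672148), out of 48803 probes on the array. They were taken by a list of probe identifiers, which sets no threshold on a measured value but was drawn up with earlier results of these data known. The gene names come from that list of identifiers. The deposited table carries no gene names, so the pairing of probe and gene was not checked against an annotation here. All cells were exponentially growing H1299, an established human lung cancer cell line whose tissue the labels give as lung adenocarcinoma. The groups were 2 clones with stable Lin-28B transfection, set against the 1 H1299 control for Lin-28B, and 2 clones with stable Ago2 transfection, set against the 1 H1299 control for Ago2. Each line was measured on 1 Illumina human HT-12 BeadChip array, on which labelled cRNA binds to probes on beads. Each transfected line is 1 clone, and the labels do not say what the control lines carry. LIN28B binds let-7 microRNA precursors and stops their processing, and AGO2 is an Argonaute, the part of the silencing complex that holds the microRNA. The series asked how mRNA levels differ after each transfection.

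NRF2, encoded by NFE2L2, is held in the cytoplasm by KEAP1, which directs its degradation. When oxidants or electrophiles modify cysteines of KEAP1, NRF2 accumulates, pairs with a small MAF protein in the nucleus and binds antioxidant response elements near its target genes. The targets rebuild glutathione and thioredoxin, clear quinones and carbonyls and break down heme. BACH1 competes for the same elements and is a repressor of HMOX1. Lung carcinomas often carry changes that keep this pathway active. The probes of NFE2L2, KEAP1, BACH1 and the other pathway genes, those of LIN28B and AGO2, and the markers of lung epithelium and of other cell types were not analysed here, because no probe other than these 7 is named.

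The antioxidant response element is shown in the promoters of TXNRD1, since that gene had matches to its core among the RefSeq promoter windows at hand (build GRCh38.p14, 250 bases before to 50 after a start site). The core searched was TGACNNNGC on both strands. Of the 7 genes, 4 had windows in the table, 6 windows in all (1 for NQO1, 1 for SRXN1, 2 for TXNRD1 and 2 for AKR1C3). Of the 6 windows, 2 held the core, both of TXNRD1, against 13.3% of all 35116 windows of that length. The windows of NQO1, SRXN1 and AKR1C3 did not hold these letters, and bases farther from a start site were not searched. The first TXNRD1 window below, chr12:104215529-104215788 on the plus strand, has a match that begins 99 bases before the start site and another on the opposite strand 8 bases before it. The second, chr12:104286782-104287041 on the plus strand, has a match on the opposite strand that begins 102 bases before its start site. All 300 bases of each window were searched, and 260 are printed, up to 10 bases after the start site. Capitals mark the matches, which are matches of letters and not measured binding sites. The AP-1 site TGANTCA, which can overlap the element, was in 0 of the 6 windows and in 7.71% of all windows.
TXNRD1 window 1: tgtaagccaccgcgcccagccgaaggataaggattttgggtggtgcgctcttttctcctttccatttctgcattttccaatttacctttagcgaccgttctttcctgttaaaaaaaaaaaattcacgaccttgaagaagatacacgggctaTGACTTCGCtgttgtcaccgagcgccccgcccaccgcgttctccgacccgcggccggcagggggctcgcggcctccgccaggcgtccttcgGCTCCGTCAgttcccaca
TXNRD1 window 2: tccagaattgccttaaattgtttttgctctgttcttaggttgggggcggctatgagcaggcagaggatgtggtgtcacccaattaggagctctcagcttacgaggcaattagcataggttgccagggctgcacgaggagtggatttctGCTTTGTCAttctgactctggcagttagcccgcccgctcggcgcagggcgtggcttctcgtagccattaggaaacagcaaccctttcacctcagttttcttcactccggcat

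Intensities are given as deposited, and differences are on the quantile-normalized log2(intensity + 32) scale, which understates changes of dim probes. Array medians lay between 61.7 and 67.04, so a value near 60 to 70 is near the background of an array. The 2 single control arrays lay farther apart than the clones. Over all kept probes, their log2 differences had an SD of 0.548, where the SD was 0.214 for the pair of Lin28B clones and 0.295 for the pair of Ago2 clones. Probes brighter than the array median on 2 or more arrays were tested, which kept 28035 probes and 6 of the 7 genes. AKR1B10 was below the median on all 6 arrays and was not tested. The test was limma over all 6 arrays, with p-values adjusted by the Benjamini-Hochberg method over all kept probes and a threshold of 0.05. Its spread comes from the 2 pairs of clones, and the single control arrays were taken to vary as the clones do. A permutation test of 2 clones against 1 control cannot go below an exact p of 0.333, so none was made. The labels do not say that the clones were grown or hybridized separately, so the p-values rest on the spread of these arrays alone, which may be technical. A level is a mean over the cells of a line, and fewer cells with a transcript cannot be told apart from less RNA per cell.

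No tested gene of the 6 passed the threshold in either transfection against its own control, and the genes did not share 1 pattern over the arrays. HMOX1 varied most, with a large part of its spread between clones of the same transfection. SLC7A11 stood out by a high value on 1 array, the Ago2 control. NQO1, TXNRD1 and SRXN1 were bright on all arrays and varied by 2.06-fold or less, and the AKR1C3 and AKR1B10 probes stayed close to the array medians.

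**Figure D1:**
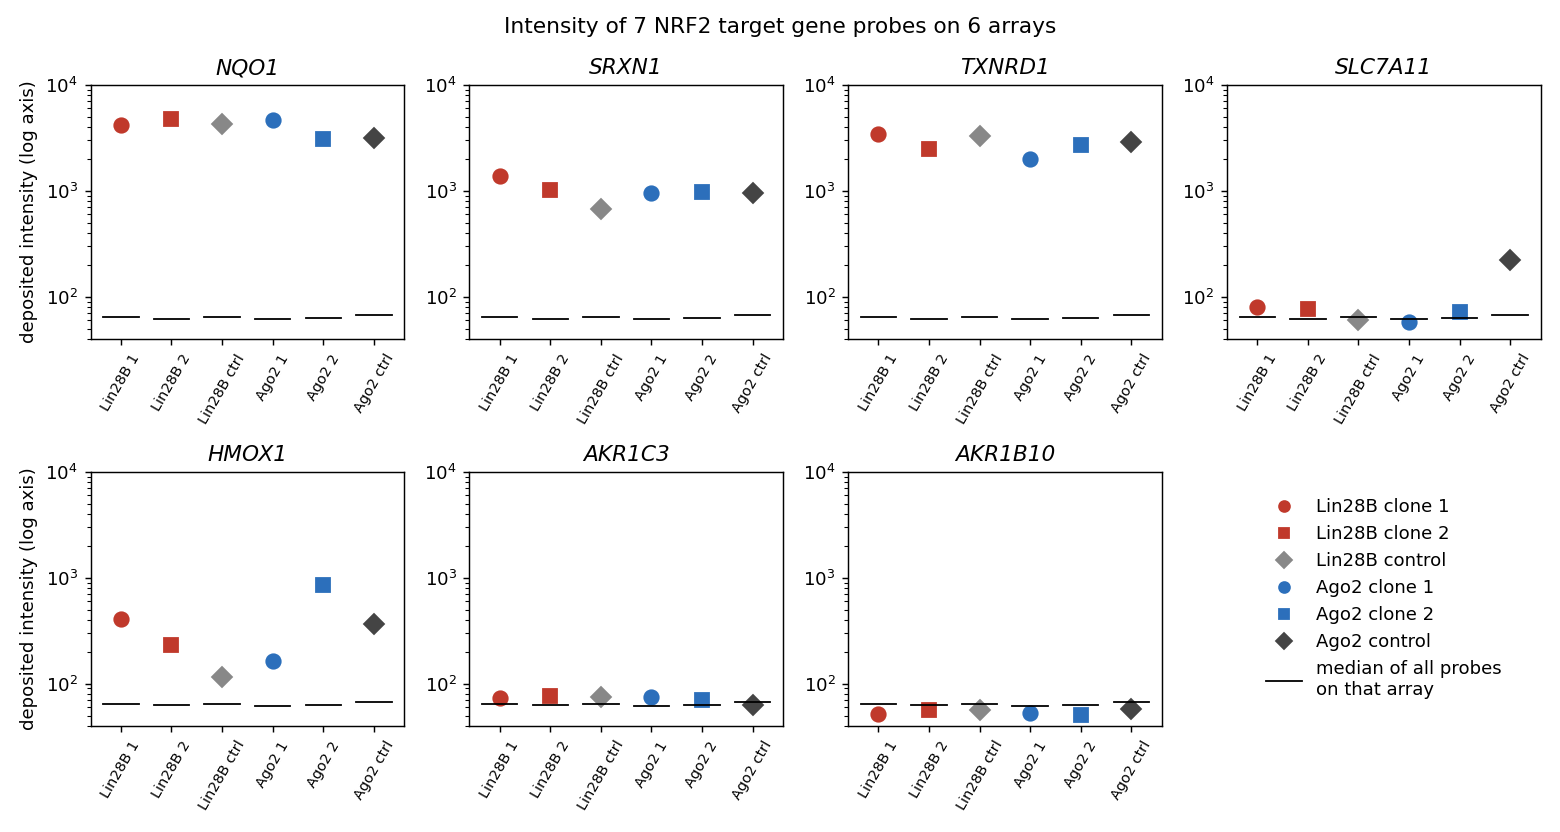
Deposited intensity (log axis) of the 7 probes on each array, with clones to the left of their control and a short line at the median of all probes on that array. HMOX1 spans 115.6 to 849, SLC7A11 is above 80 only in the Ago2 control (223), and the probes of AKR1C3 and AKR1B10 lie near the medians.

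NQO1 is the quinone reductase that reduces quinones directly to hydroquinones, and its transcript is a common readout of NRF2. Its intensity was 4195 and 4781 in Lin28B clones 1 and 2, against 4275 in their control. It was 4692 and 3115 in Ago2 clones 1 and 2, against 3124 in their control. The Lin28B clones lay on either side of their control in deposited intensity, and Ago2 clone 2 was nearly level with its control while clone 1 was higher. On the normalized scale both Lin28B clones were below their control, by 0.34 and 0.072, and both Ago2 clones above theirs, by 0.62 and 0.0098. The log2 difference was -0.21 ± 0.29 (SE) in the Lin28B clones and 0.31 ± 0.29 (SE) in the Ago2 clones, with limma adjusted p-values of 0.763 and 0.702. The 95% intervals ran between -0.96 and 0.55 for Lin28B and between -0.45 and 1.07 for Ago2. A 2-fold rise lies inside the Ago2 interval, and the Lin28B interval stops just short of a 2-fold fall. Both intervals take a single control array to vary as the clones do, so neither excludes a 2-fold change. Exchanged controls moved the Lin28B difference to 0.51. The Lin28B sign depended on the scaling, since arrays only shifted to a common median gave 0.089.

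SRXN1, sulfiredoxin, repairs overoxidized peroxiredoxins. Its intensity was 1378 and 1020 in Lin28B clones 1 and 2, against 669.8 in their control, and 950.3 and 967.4 in Ago2 clones 1 and 2, against 949.3 in their control. Both Lin28B clones were the highest of the 6 arrays and the Lin28B control was the lowest, whereas the Ago2 clones and their control were nearly level. The log2 difference was 0.67 ± 0.18 (SE) in the Lin28B clones, a fold of 1.59 with a 95% interval of 0.20 to 1.13 on the log2 scale. It had an unadjusted p of 0.0156 and an adjusted p of 0.142 in limma, so it did not pass. Clone 1 differed from the control by 0.85 and clone 2 by 0.48. In the Ago2 clones the difference was 0.037 ± 0.18 (SE, adjusted p = 0.951 in limma). The difference between both effects was 0.63 ± 0.25 (SE, adjusted p = 0.246 in limma). Against the Ago2 control, the Lin28B difference was 0.30 (adjusted p = 0.611 in limma).

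TXNRD1 is the cytosolic thioredoxin reductase, which uses NADPH to keep thioredoxin reduced. Its intensity was 3456 and 2467 in Lin28B clones 1 and 2, against 3265 in their control. It was 1999 and 2698 in Ago2 clones 1 and 2, against 2885 in their control. The lowest array was Ago2 clone 1, and the clones of the 2 transfections overlapped. On the normalized scale all 4 clones were below their controls, by 0.22 and 0.62 for the Lin28B clones and by 0.46 and 0.042 for the Ago2 clones, although Lin28B clone 1 was above its control in deposited intensity. The log2 difference was -0.42 ± 0.25 (SE) in the Lin28B clones and -0.25 ± 0.25 (SE) in the Ago2 clones, with limma adjusted p-values of 0.459 and 0.734. Its gap between the 2 clones of a transfection, 0.40 for Lin28B and -0.41 for Ago2 (clone 1 minus clone 2), was close to the first of these differences in size and larger than the second. A shift of each array to a common median, in place of quantile normalization, gave -0.14 for the Lin28B difference.

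SLC7A11 is the light chain of the cystine-glutamate exchanger xCT, which brings in the cystine for glutathione, and ATF4 regulates it beside NRF2. Its probe was dim on 5 of the 6 arrays. It measured 79.8 and 76.3 in Lin28B clones 1 and 2, against 60.5 in their control. In Ago2 clones 1 and 2 it measured 58.1 and 72.2, against 223 in their control. On the Ago2 control array the probe stood at 3.33 times the array median, and on the others at 0.933 to 1.24 times, so the Ago2 control alone was well above background and both Ago2 clones were below it. The log2 difference in the Ago2 clones was -1.42 ± 0.12 (SE), with -1.51 for clone 1 and -1.34 for clone 2. Since both clones are near background, its size follows the offset added before the log and has no fixed value: it was -0.995 with an offset of 100 (adjusted p = 0.118 in limma) and -1.81 with none. SLC7A11 was the 1 gene of the 6 that lay at least 2-fold from the control in both Ago2 clones, against 1.24% of all kept probes. This difference had an unadjusted p of 0.000144 and an adjusted p of 0.102 in limma, so it did not pass. Its SE rests in part on gaps between clones near background, and the bright Ago2 control has no replicate. With an intensity trend in the moderation the adjusted p was 0.00591, and set against the other control, that for Lin-28B, the Ago2 clones differed by 0.097. In the Lin28B clones the difference was 0.27 ± 0.12 (SE, adjusted p = 0.329 in limma), with clone values 0.29 and 0.25 above the control. All 3 of these arrays were near background, so no direction is drawn from them.

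The difference between the 2 effects of SLC7A11 passed the threshold, at 1.69 ± 0.17 (SE, adjusted p = 0.0409 in limma), as 3.81% of all kept probes did. It equals the direct difference between the Lin28B clones and the Ago2 clones, 0.17 ± 0.099 (SE, adjusted p = 0.849 in limma), minus the difference between the Lin28B control and the Ago2 control, -1.52 ± 0.14 (SE, adjusted p = 0.0317 in limma). The control difference passed for 5.97% of all kept probes. It rests on 1 array a side, so most of the value is the distance between 2 single arrays, and line and transfection cannot be told apart in it. The SE of the difference between effects also rests in part on clones near background. A replicate block was set by clone number, with both controls put with clone 1. Under it the call for the difference between effects was lost (adjusted p = 0.116 in limma). With an offset of 100 (1.16, adjusted p = 0.0532 in limma) it was lost as well. Under both settings 0 of all kept probes passed in this comparison. This call and that of the control difference also depended on which clone was left out, as did the calls over all kept probes. Such fits leave 1 array in a group, so only sizes are given here. The difference between effects was 1.68 without Lin28B clone 1, 1.71 without clone 2, 1.59 without Ago2 clone 1 and 1.78 without Ago2 clone 2. Exchanged controls gave -1.35 (adjusted p = 0.0902 in limma).

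HMOX1, heme oxygenase 1, breaks heme down to biliverdin, iron and carbon monoxide, and heme, metals and other stresses induce it as well as NRF2. Its intensity was 407 and 229.9 in Lin28B clones 1 and 2, against 115.6 in their control. It was 164.7 and 849 in Ago2 clones 1 and 2, against 368 in their control. Both Lin28B clones were above their control, while the Ago2 clones lay on either side of theirs and held both the highest value of the 6 arrays and the second lowest. Ago2 clone 2 was 5.16-fold above clone 1, and Lin28B clone 1 was 1.77-fold above clone 2. The log2 difference was 1.22 ± 0.94 (SE) in the Lin28B clones, with 1.59 for clone 1 and 0.85 for clone 2, and an adjusted p of 0.569 in limma. In the Ago2 clones it was 0.018 ± 0.94 (SE, adjusted p = 0.997 in limma), a mean of -1.07 for clone 1 and 1.11 for clone 2. The 95% interval ran between -1.28 and 3.72 for Lin28B and between -2.48 and 2.52 for Ago2, so a 2-fold change in either direction lies inside both intervals. Without Ago2 clone 1 the Ago2 difference was 1.11 and without clone 2 it was -1.07.

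Set beside all kept probes, the spread of HMOX1 was wide. Its normalized values covered 2.59 on the log2 scale, and 0.285% of kept probes covered more, where the median probe covered 0.37. The gap between the Ago2 clones was -2.18 (clone 1 minus clone 2), exceeded in size by 0.0464% of kept probes, and that between the Lin28B clones was 0.75, exceeded by 0.706%. For SLC7A11 the range was 1.52, exceeded by 3.64% of kept probes, but its clone gaps were 0.037 for Lin28B and -0.18 for Ago2, exceeded in size by 81.1% and 36.4%. Its clones were all near background, so these small gaps do not measure agreement between clones. TXNRD1, SRXN1 and NQO1 covered 0.92, 0.85 and 0.71, exceeded by 15.9%, 18.7% and 25.5%. These shares describe the 6 arrays and are no test.

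**Figure D2:**
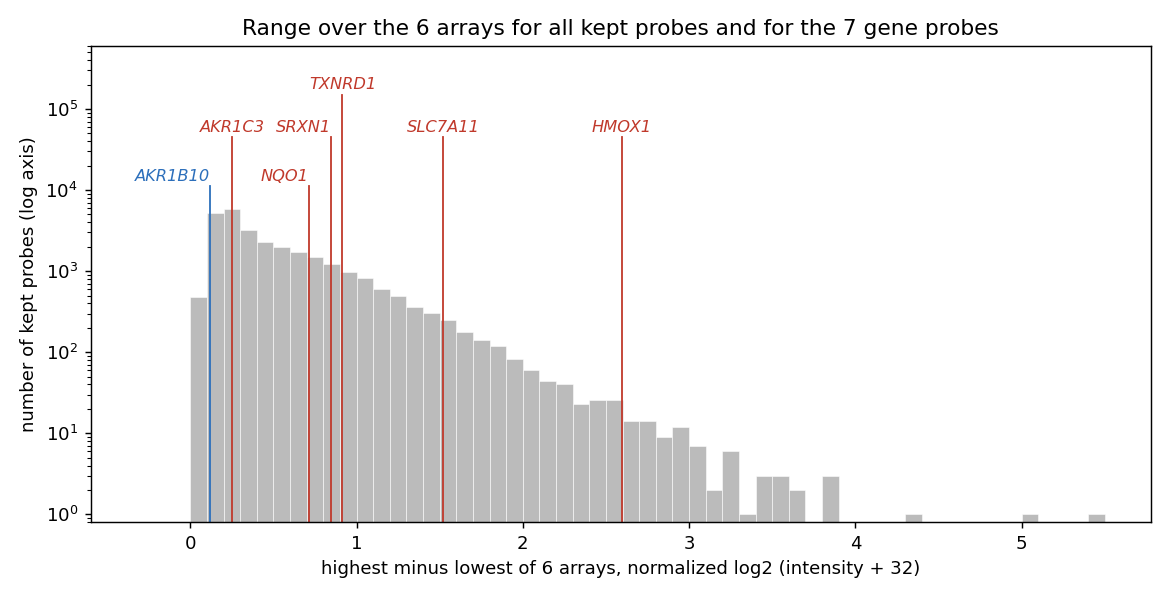
Histogram of the range over the 6 arrays (highest minus lowest normalized log2 value, horizontal axis) for 28035 kept probes (count on a log axis), with a line at each of the 7 genes, in blue for AKR1B10, which was not kept. HMOX1 lies at 2.59 and SLC7A11 at 1.52, and AKR1C3 at 0.25.

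AKR1C3 and AKR1B10 are aldo-keto reductases, which reduce carbonyls, prostaglandins and steroids (AKR1C3) and retinal and lipid aldehydes (AKR1B10). AKR1C3 measured 73.7 and 76.5 in Lin28B clones 1 and 2, against 74.5 in their control, and 75.3 and 70.4 in Ago2 clones 1 and 2, against 63.4 in their control. The 5 arrays other than the Ago2 control were slightly above their medians. The log2 difference was 0.024 ± 0.10 (SE) in the Lin28B clones and 0.20 ± 0.10 (SE) in the Ago2 clones, with limma adjusted p-values of 0.93 and 0.489. AKR1B10 measured 52.1 and 56.5 in Lin28B clones 1 and 2, against 56.3 in their control, and 52.8 and 50.3 in Ago2 clones 1 and 2, against 58.1 in their control. No detection calls were used, so at these intensities a low level cannot be told from background, and neither a fall nor a small rise from it could be detected. AKR1C3 has close paralogs, and whether its probe also binds their transcripts was not tested.

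Counted over the 6 tested genes, 0 passed in the Lin28B comparison, against 1.65% of all kept probes, and 0 were at least 2-fold from the control in both Lin28B clones, against 2.55%. At an unadjusted threshold of 0.05 in limma, 1 gene (SRXN1) passed, against 19.5% of kept probes. Their log2 differences were positive for 4 and negative for 2, with a median of 0.15, against 0.016 over all kept probes. Of the positive ones, SLC7A11 (0.27) and AKR1C3 (0.024) were near background on these arrays, and this median lies between their values. The share of positive differences over all kept probes was not counted, so no group direction is drawn for Lin28B or for Ago2. In the Ago2 comparison 0 of the 6 passed in limma, as did 0% of all kept probes, and 1 (SLC7A11) passed at an unadjusted threshold of 0.05, against 15.1%. The differences were again positive for 4 and negative for 2, with a median of 0.027, against -0.0081 over all kept probes. Both clones lay on the same side of their control for 5 of the 6 genes with Lin28B, against 79.9% of kept probes, and for 5 of the 6 with Ago2, against 73.8%. Both of these counts are near the background.

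**Figure D3:**
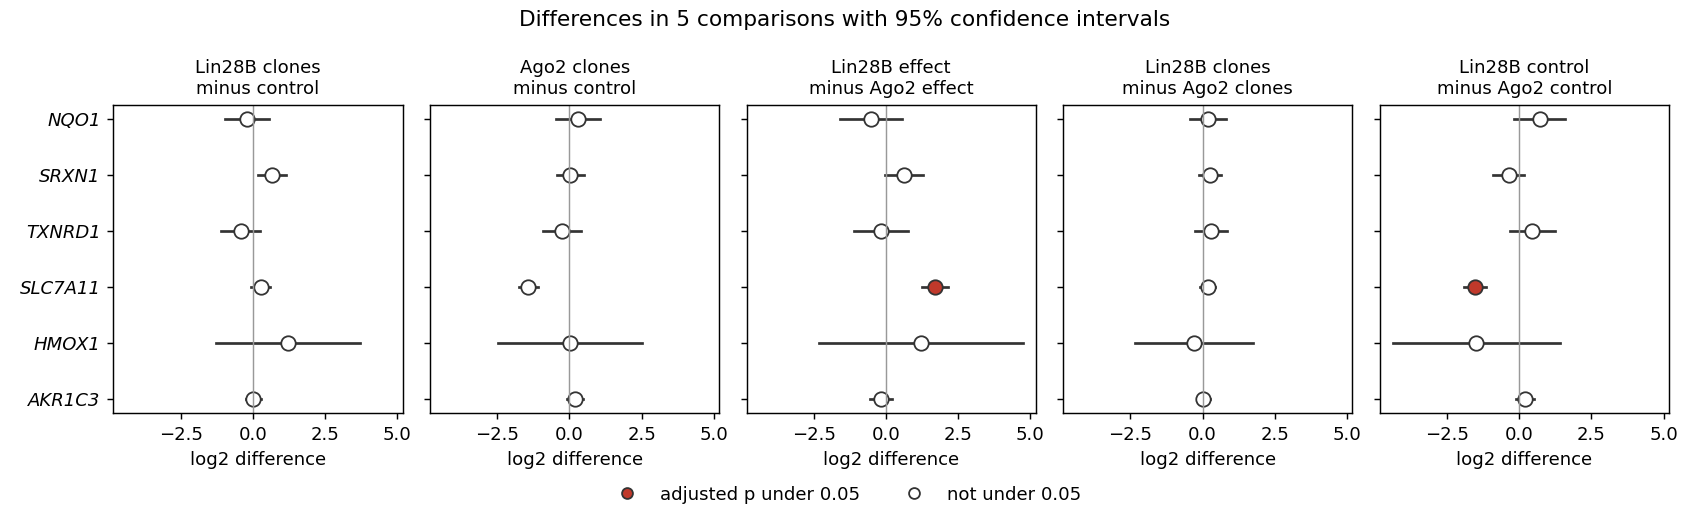
Log2 differences (points) with 95% confidence intervals from limma (lines) for the 6 tested genes in 5 comparisons, with filled points for an adjusted p under 0.05. Filled points are found for SLC7A11 in the difference between effects (1.69) and between the controls (-1.52), and the intervals of HMOX1 are the widest.

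Compared directly, without the controls, the Lin28B clones and the Ago2 clones differed by 0.29 or less on the log2 scale for each of the 6 genes, and 0 passed in limma, as did 0% of all kept probes (0 of the 6 at an unadjusted 0.05, against 6.96%). The differences were 0.19 ± 0.23 (SE) for NQO1, 0.27 ± 0.14 for SRXN1 and 0.29 ± 0.21 for TXNRD1. For HMOX1 the difference was -0.28 ± 0.77 (SE), with a 95% interval between -2.32 and 1.76. AKR1C3 differed by 0.029 ± 0.085 (SE). The clones of the transfections did not overlap for 2 of the 6 genes, SRXN1 and SLC7A11, against 35.6% of all kept probes in either direction. The Lin28B clones were the higher ones for both genes. All SLC7A11 clones were near background, so no order is drawn for that gene.

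Between the single control arrays, 1 of the 6 genes (SLC7A11) passed in limma, against the 5.97% of kept probes given above. The log2 difference of the Lin28B control minus the Ago2 control was -1.49 ± 1.09 (SE) for HMOX1, 0.71 ± 0.33 for NQO1, 0.46 ± 0.29 for TXNRD1, -0.36 ± 0.20 for SRXN1 and 0.20 ± 0.12 for AKR1C3, none past the threshold. On the normalized scale the Lin28B control was the lowest or the highest of the 6 arrays for 5 of the 6 genes, against 52.4% of kept probes. It was lowest for SRXN1, SLC7A11 and HMOX1 and highest for NQO1 and TXNRD1. In deposited intensity the Lin28B control was an extreme only for SRXN1 and HMOX1, so the count depends on the normalization. The Ago2 control was an extreme on the normalized scale for 3 of the 6, lowest for NQO1 and AKR1C3 and highest for SLC7A11, against 44.7% of kept probes. For NQO1 the lowest deposited intensity was that of Ago2 clone 2. These counts over 6 genes were not tested against those shares. A clone-to-control difference of any probe moves with which control array is used.

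Across the 6 arrays the genes did not follow each other as a group. AKR1C3 on all arrays and SLC7A11 on all but the Ago2 control were near background, so pairs with either could hardly show a shared pattern. Of the 15 pairs of tested genes, 1 had a Pearson r above 0.5 (NQO1 with AKR1C3, 0.79) and 3 had one below -0.5. These 3 were SLC7A11 with AKR1C3 (-0.92), NQO1 with HMOX1 (-0.87) and NQO1 with SLC7A11 (-0.66), and the median over the pairs was -0.066. By rank (Spearman rho) the values were -0.49, -0.77 and -0.71 for these pairs, and 0.83 for NQO1 with AKR1C3. HMOX1 and SRXN1 had an r of 0.48 and HMOX1 and SLC7A11 one of 0.30. All points of a pair share an array and its normalization, and with 6 arrays a single array such as the Ago2 control can set r, so these values are a description only. Of the 1440 or 1441 other kept probes with an SD of at least 0.5 over the arrays, 31 followed SLC7A11 with an r above 0.95, 16 followed NQO1, 5 followed AKR1C3, 1 each followed SRXN1 and HMOX1, and 0 followed TXNRD1. Those probes are not named here.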

How the data were processed

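Per the labels' protocols, RNA was extracted with Trizol and biotinylated cRNA was made with the Ambion MessageAmp kit. The deposited table holds the linear intensity of 48803 probes on 6 arrays. No source used here names the scanner software, the background handling or the normalization of these intensities. Tested on the values, background was still present and the arrays were not quantile normalized.

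Intensities were floored at 1, 32 was added, log2 was taken and arrays were quantile normalized. The filter kept 28035 probes (57.4%). A linear model of 4 groups was fitted with limma 3.58.1 in R 4.3.3, with 2 residual and 2.54 prior degrees of freedom, for 5 comparisons. The number of arrays limits the precision.

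The list of 7 probe identifiers uses no measured value as a criterion, but it, the gene lists and the tests were chosen with earlier results of these data known. All 7 probes are named. The rule for naming other genes (pathway lists, markers, genes of similar pattern) needs gene symbols and could not be applied. Groups came from the sample titles. Alternatives changed the offset, background, normalization, filter, moderation, control array, clones and a block for clone number.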

Additional observations from a re-analysis of the deposited data

Results flagged for a closer look

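SLC7A11 stood out because the difference between the Lin28B effect and the Ago2 effect passed the threshold in limma (1.69 on the log2 scale, adjusted p = 0.0409). Both Ago2 clones were below their control, while the Lin28B clones and their control were all near background, so no direction is drawn for Lin28B. Of this value, 0.17 lies between the clones and the rest between the 2 single control arrays (Lin28B control minus Ago2 control, -1.52).

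NQO1 was also noted because on the normalized scale both Lin28B clones were below their control and both Ago2 clones above theirs. The difference between the effects was -0.52 on the log2 scale and did not pass (adjusted p = 0.546 in limma). It was -0.21 without Ago2 clone 1, -0.82 without Ago2 clone 2 and -0.27 when a shift to a common median replaced quantile normalization. In deposited intensities Lin28B clone 2 was above its control and Ago2 clone 2 slightly below its own, so the opposite directions were not seen there.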

How the results depend on the processing

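Among the 6 tested genes, the counts past the threshold stayed at 0 under all alternatives run for Lin28B against its control and for the direct comparison of clones. For Ago2 against its control, the intensity trend gave 1 gene (SLC7A11) in place of 0, and 161 of all kept probes in place of 0. For the difference of effects, the count of 1 (SLC7A11) became 0 with an offset of 100, exchanged controls and the replicate block. Under each of these 0 of all kept probes passed. For the controls the count became 0 with the replicate block, as did that of all kept probes. Both of these SLC7A11 calls also depended on which clone was left out, as did the calls over all kept probes. Without a clone 1 residual degree of freedom is left. The other causes were not tested.

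Over all kept probes the calls ranged from 0 to 2497 for Lin28B (463 in the reported fit), 0 to 161 for Ago2 (0), 0 to 2876 for the difference (1067), 0 to 4125 for the controls (1674) and 0 to 2 for the clones compared directly (0). Of 468 values of single genes under an alternative, 434 kept direction and side of the threshold and 26 changed sign, none past the threshold under that alternative. With exchanged controls the values were, for Lin28B, 0.51 for NQO1, 0.037 for TXNRD1, -1.25 for SLC7A11 and -0.27 for HMOX1. For Ago2 they were -0.40 for NQO1, 0.097 for SLC7A11 and -0.0048 for AKR1C3. For the difference they were 0.91 for NQO1, -0.093 for SRXN1, 0.74 for TXNRD1, -1.35 for SLC7A11, -1.77 for HMOX1 and 0.23 for AKR1C3. A shift to a common median gave 0.089 for NQO1 (Lin28B) and 0.10 for TXNRD1 (difference). HMOX1 in Ago2 was -0.014 with normexp, -0.022 with no offset and -0.34 with the replicate block. Leaving out a clone gave ranges of -1.07 to 1.11 for HMOX1 in Ago2, -1.38 to 0.81 for HMOX1, -0.11 to 0.50 for NQO1, 0.082 to 0.45 for SRXN1, 0.078 to 0.49 for TXNRD1 and -0.0098 to 0.065 for AKR1C3 between the clones directly, -0.0033 to 0.052 for AKR1C3 in Lin28B and -0.38 to 0.034 for TXNRD1 in the difference.

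The clone numbers do not pair the clones by the labels, and the differences between clone 1 and clone 2 of both transfections correlated at -0.204 over probes. The crossed block and the fit with no offset were added after the data were seen. The replicate block put both controls with clone 1, so it also moved clone-to-control differences, and it took up a residual degree of freedom. With the replicate block 0 of all kept probes passed in any of the comparisons, and so 0 of the 6 genes. SLC7A11 then had an adjusted p of 0.116 in limma for the difference. With the crossed block 865 probes were called for Lin28B, 0 for Ago2, 1743 for the difference and 2500 for the controls. SLC7A11 was among them for the difference (adjusted p = 0.0332 in limma) and for the controls (adjusted p = 0.0271 in limma).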
